A study of Homo sapiens with 12 samples.

Results

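The 10 genes described here encode the main human glucose transporter and 9 enzymes of glycolysis. The list was chosen with earlier results of these data known, and all 10 were found by symbol among the 13937 genes of the deposited table. They are SLC2A1, which carries glucose across the plasma membrane; HK2, PFKP, ALDOA and TPI1, which act in the first stage of the pathway; GAPDH, PGK1, ENO1 and PKM, which act in the second; and LDHA, a subunit of lactate dehydrogenase. Glycolysis splits glucose into pyruvate in the cytosol. Its first stage spends ATP to phosphorylate and cleave the sugar, and its second stage regains ATP at the phosphoglycerate kinase and pyruvate kinase steps. Lactate dehydrogenase then turns pyruvate into lactate and renews the NAD+ that GAPDH needs. Many of these genes are known targets of the hypoxia-inducible factors (HIFs) and of MYC, and cultured fibroblasts take up glucose and release lactate also in the presence of oxygen.

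The cells were WI-38, fibroblasts grown as a line from embryonic human lung and transfected with small interfering RNAs (siRNAs), and messenger RNA was counted from its 3' ends, in CPM (read counts scaled to library size). The 12 libraries form 6 groups of 2, named here by what was targeted. The cGAS_YT group (replicates 9 and 10) received siRNAs against cGAS, a sensor of DNA in the cytosol, together with siRNAs against YAP and TAZ, the transcriptional coactivators held in check by the Hippo pathway. The STING_YT group (15 and 16) received siRNAs against STING, the adaptor downstream of cGAS, together with the YAP and TAZ siRNAs. The YT group (3 and 4) received YAP and TAZ siRNAs with the control siRNA, which the labels call siAS. The cGAS group (7 and 8) and the STING group (13 and 14) received their siRNAs with siAS, and the control group (1 and 2) received siAS alone. All groups were transfected, untransfected cells were not analysed here, and a knockdown leaves part of its target. The sources used here give neither the oxygen tension nor the time from transfection to harvest. The labels do not say whether the 2 replicates of a group are separate cultures, and p-values then measure library-to-library spread, which may be technical.

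The targeted transcripts were low where the labels name them. YAP1 stood at 24.6 and 21.7 CPM in cGAS_YT, 12.6 and 16.1 CPM in STING_YT and 16.3 and 13.02 CPM in YT libraries, against 114 and 105 CPM in control libraries. WWTR1, which encodes TAZ, was at most 22.8 CPM in the 6 libraries with YAP and TAZ siRNAs, against 133 and 144 CPM in control libraries. WWTR1 was also lower with cGAS or STING siRNAs alone than in control libraries, as given below. The cGAS gene (listed as MB21D1) was at most 1.94 CPM with cGAS siRNAs, against 9.60 and 6.14 CPM in control libraries. The STING gene (listed as TMEM173) was at most 1.93 CPM with STING siRNAs, against 24.5 and 23.6 CPM in control libraries. Library totals lay between 17790774 and 20650727 reads. All 9 fibroblast markers were listed and summed to 22475 to 36511 CPM. Of 5 leukocyte markers CD68 and CD14 were listed, at a sum of 3.83 to 6.56 CPM, while PTPRC, the 4 endothelial and the 3 red cell markers and the epithelial EPCAM and CDH1 were not among the genes listed. Of 10 glycolytic genes 9 were higher in control replicate 2 than in control replicate 1, by a median of 1.18-fold, and the mitochondrially encoded share of reads was 2.70% in replicate 2 and 4.23% in replicate 1. YT replicates were the least alike, with 249 genes over 2-fold apart, and 7 of the 10 genes were higher in replicate 4.

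In a 3' end library each transcript gives about 1 fragment, so CPM compares levels between genes without a correction for length. Such levels are still uncertain where counting could split reads with pseudogenes, as given below. GAPDH was the most abundant of the 10 in every group and ranked 52nd of 13937 genes in control cells, where it averaged 1923 ± 177 CPM (SD, n = 2). PKM followed at 1255 ± 139 CPM and ENO1 at 1089 ± 143 CPM. Their SDs overlapped, but PKM was above ENO1 within both control libraries (1157 and 1353 against 987 and 1189.6 CPM). ALDOA, at 412 ± 51.9 CPM, stood below them. TPI1, LDHA and PGK1, at 245 ± 16.9, 227 ± 42.7 and 223 ± 29.9 CPM, had SDs that overlapped. In control libraries TPI1 was at 233 and 257 CPM, LDHA at 196 and 257 CPM and PGK1 at 202 and 244 CPM. The SDs of PFKP at 176 ± 21.1 and SLC2A1 at 155 ± 11.95 CPM overlapped too. PFKP was the higher within both control libraries (161 and 191 against 147 and 164 CPM). HK2 was the least abundant at 11.4 ± 2.84 CPM, below its sister isozyme HK1 at 90.0 ± 3.50 CPM. Together the 10 transcripts summed to 4009 and 3877 CPM in cGAS_YT, 3426 and 3355 CPM in STING_YT, 3654 and 4305 CPM in YT, 4892 and 5008 CPM in cGAS, 5851 and 5449 CPM in STING and 5269 and 6161 CPM in control libraries. Every library with YAP and TAZ siRNAs had a lower sum than every library without them.

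**Figure D1:**
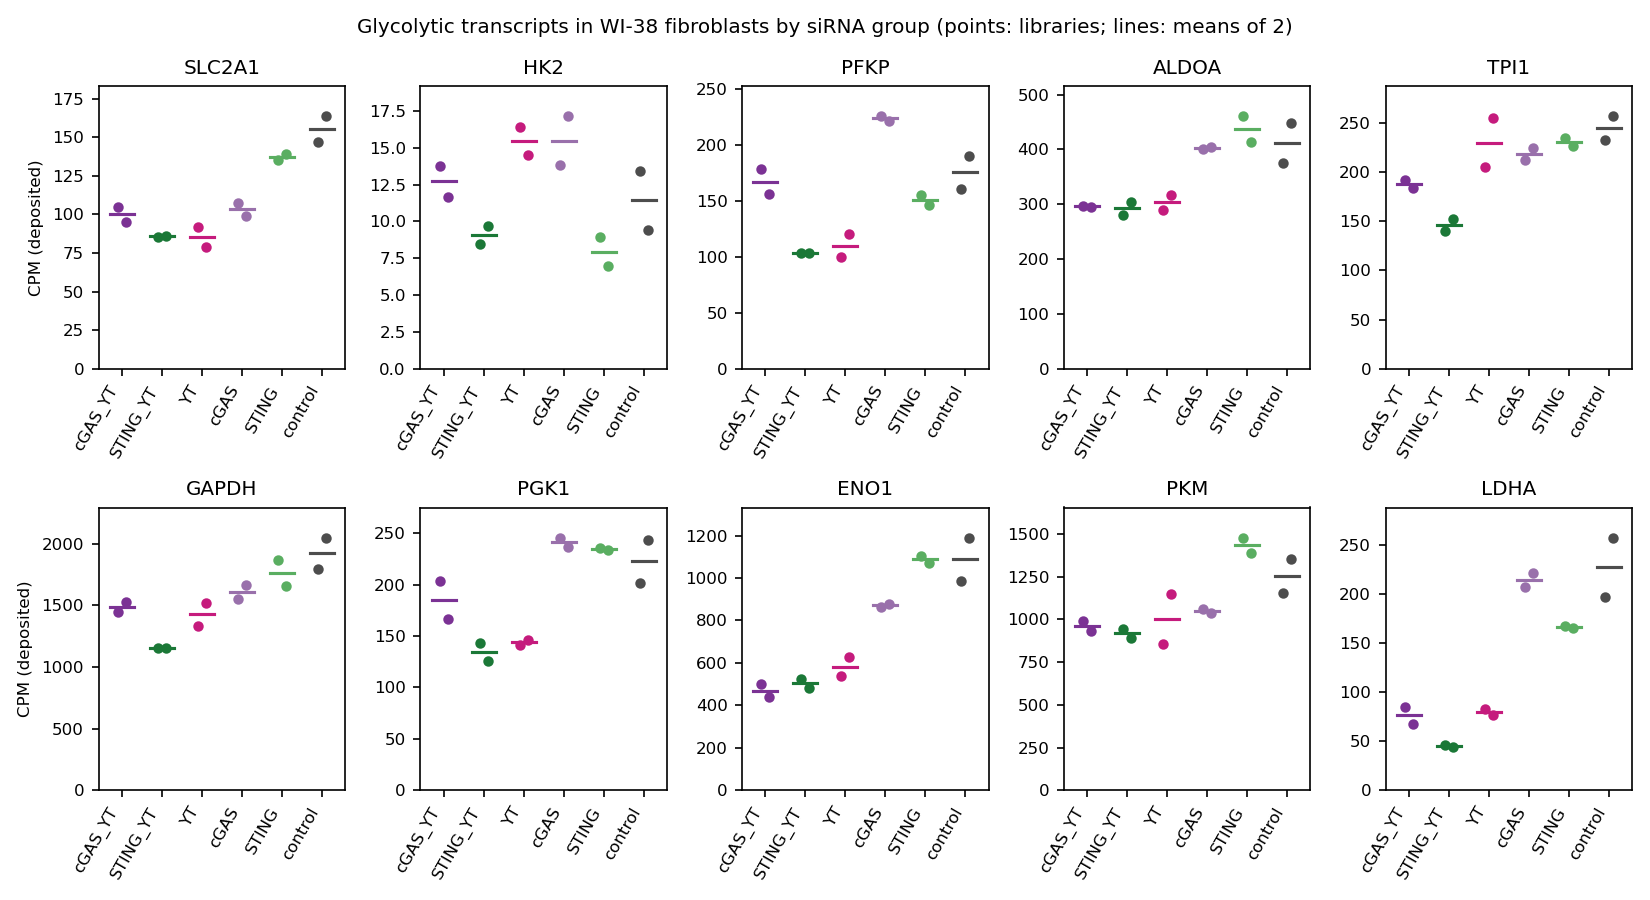
Deposited CPM of the 10 transcripts in the 12 libraries, 1 panel per gene with its own axis from 0; points are libraries and lines the means of 2. LDHA and ENO1 are lower in all 6 libraries with YAP and TAZ siRNAs than in any library without them, SLC2A1 is at 105 and 95.3 CPM in cGAS_YT and 108 and 98.8 CPM in cGAS libraries, and HK2 is at 17.1 CPM at most.

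The promoters of LDHA, ENO1, SLC2A1 and HK2 are shown because LDHA and ENO1 had the deepest falls of the 10, SLC2A1 a fall that differed between backgrounds, and HK2 no called change after the YAP and TAZ siRNAs. Each sequence is the RefSeq window of 300 bases (GRCh38.p14, 250 before to 50 after the most upstream listed start), 5' to 3' on the gene's strand. Capitals mark the core of the HIF response element, ACGTG or GCGTG, on either strand, so that a reverse match reads CACGT or CACGC.
LDHA, chr11:18394313-18394612, plus strand: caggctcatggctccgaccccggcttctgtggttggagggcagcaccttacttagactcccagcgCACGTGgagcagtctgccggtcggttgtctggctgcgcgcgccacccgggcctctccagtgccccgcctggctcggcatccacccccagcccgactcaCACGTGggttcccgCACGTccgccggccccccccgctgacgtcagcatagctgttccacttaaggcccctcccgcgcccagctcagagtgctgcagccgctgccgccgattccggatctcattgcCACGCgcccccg
ENO1, chr1:8878637-8878936, minus strand: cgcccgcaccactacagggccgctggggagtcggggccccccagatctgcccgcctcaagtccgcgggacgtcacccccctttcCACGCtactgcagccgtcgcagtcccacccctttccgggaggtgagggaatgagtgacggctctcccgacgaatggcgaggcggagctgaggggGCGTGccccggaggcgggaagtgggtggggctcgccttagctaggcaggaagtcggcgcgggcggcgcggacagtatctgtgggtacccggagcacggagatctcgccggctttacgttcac
SLC2A1, chr1:42958819-42959118, minus strand: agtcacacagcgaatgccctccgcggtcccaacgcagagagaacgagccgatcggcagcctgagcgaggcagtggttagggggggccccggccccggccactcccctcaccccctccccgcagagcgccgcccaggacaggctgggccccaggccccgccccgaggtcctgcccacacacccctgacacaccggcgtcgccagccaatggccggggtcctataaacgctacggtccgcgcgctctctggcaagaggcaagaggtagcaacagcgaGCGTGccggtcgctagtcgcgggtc
HK2, chr2:74833877-74834176, plus strand: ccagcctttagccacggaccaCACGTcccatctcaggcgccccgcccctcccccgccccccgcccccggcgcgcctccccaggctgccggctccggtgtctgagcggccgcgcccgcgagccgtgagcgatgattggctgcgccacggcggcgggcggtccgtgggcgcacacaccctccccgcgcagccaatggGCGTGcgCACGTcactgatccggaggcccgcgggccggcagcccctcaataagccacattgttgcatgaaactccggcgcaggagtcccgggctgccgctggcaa
The LDHA window holds 6 matches, counting each palindromic CACGTG once per strand, HK2 3, ENO1 2 and SLC2A1 1. Of the 10 genes 8 hold at least 1 match in this window, all but TPI1 and PFKP, against 48.4% of 27305 promoters of the same length. Those promoters were not matched for their content of G and C, so the 2 shares are not read as an enrichment. The E-box CACGTG, a binding motif of MYC that overlaps the HIF core, is in the windows of LDHA and GAPDH, and in 7.40% of all promoters. CATTCC, the core of the motif bound by the TEAD partners of YAP and TAZ, was searched on both strands and occurs in the ENO1 window alone, against 14.1% of all promoters. These are matches of letters and show no binding. The number of HIF cores and the change after YAP and TAZ siRNAs are given side by side only as a description, and a link was not tested. In YT against control LDHA, with 6 matches, changed by -1.49, PGK1, with 4, by -0.62 and HK2, with 3, by 0.42. ENO1 and GAPDH, with 2 each, changed by -0.90 and -0.43. PKM, ALDOA and SLC2A1, with 1 each, changed by -0.34, -0.43 and -0.86, and TPI1 and PFKP, with 0, by -0.098 and -0.67. The counts of LDHA and GAPDH include CACGTG sites counted on both strands. TPI1 was not called in YT or cGAS_YT cells. HK2 was not called lower in any background, while PFKP fell in all 3.

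YT was compared with control to ask what followed from YAP and TAZ depletion with cGAS and STING in place. Of the 10 genes 8 fell (limma, adjusted p under 0.05 over 13894 genes), where 20.9% of all genes tested were called lower and 20.6% higher. The 10 were chosen with earlier results of these data known, so the comparison with all genes is a description. None of the 10 was called higher by limma, edgeR or DESeq2, and 1, HK2, was higher at an unadjusted p under 0.05. The median log2 change of the 10 was -0.53, beside 0.0031 for all genes. LDHA fell most, then ENO1 and SLC2A1, and only HK2 and TPI1 were not called. In bulk samples, fewer cells of a type and less RNA per cell cannot be told apart. The keratin genes KRT8, KRT18 and KRT19, the 3 of 5 epithelial markers listed, summed to 28.1 and 34.5 CPM in YT and 48.5 and 56.0 CPM in control libraries. The fibroblast markers summed to 26587 and 28218 CPM in YT and 32703 and 33209 CPM in control libraries. Both sums were lower in YT, and their part in the result was not tested.

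SLC2A1 (chromosome 1, 42925375 to 42959176, GRCh38), which encodes the transporter GLUT1, stood at 91.7 and 78.9 CPM in YT and 147 and 164 CPM in control libraries. The groups did not overlap, and the log2 change was -0.86 ± 0.094 (SE; adjusted p = 1.99e-06), which left 55.0% of the control mean. PFKP (chromosome 10, 3066333 to 3137712), the platelet-type subunit of phosphofructokinase, the committed step of the pathway, stood at 100.1 and 120.3 CPM in YT and 161 and 191 CPM in control libraries, a change of -0.67 ± 0.10 (adjusted p = 7.07e-05). HK2 (chromosome 2, 74833981 to 74893359), the inducible hexokinase that phosphorylates incoming glucose, was the exception. It stood at 16.4 and 14.5 CPM in YT and 13.4 and 9.43 CPM in control libraries (0.42 ± 0.19, adjusted p = 0.0847). Without control replicate 1 the HK2 change was larger (0.65), and without control replicate 2 it was smaller (0.185). The isomerase gene TPI1 (chromosome 12, 6867119 to 6870948) was at 205 and 255 CPM in YT and 233 and 257 CPM in control libraries, and these overlapped (-0.098 ± 0.097, adjusted p = 0.453). ALDOA (chromosome 16, 30064164 to 30070457), the aldolase that cleaves the phosphorylated sugar, stood at 290.1 and 317 CPM in YT and 375 and 449 CPM in control libraries (-0.43 ± 0.092, adjusted p = 0.00125), 73.7% of the control mean. TPI1 was called lower without YT replicate 4 (-0.25, adjusted p = 0.0253).

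Among genes of the second stage, ENO1 (chromosome 1, 8861000 to 8879250), which encodes the enolase that forms phosphoenolpyruvate, stood at 538 and 628 CPM in YT and 987 and 1189.6 CPM in control libraries. Every YT value lay well under every control value, and ENO1 fell by 0.90 ± 0.10 on the log2 scale (adjusted p = 3.5e-06), to 53.6% of control. PGK1 (chromosome X, 77910739 to 78129296), the kinase of the first ATP-yielding step, stood at 142 and 146 CPM in YT and 202 and 244 CPM in control libraries, a change of -0.62 ± 0.11 (adjusted p = 0.000184). GAPDH (chromosome 12, 6533927 to 6538374), the dehydrogenase that uses NAD+, stood at 1334 and 1519.7 CPM in YT and 1798 and 2048 CPM in control libraries, a change of -0.43 ± 0.100 (adjusted p = 0.00250), and the call was lost when only these 2 groups were fitted (adjusted p = 0.0533). Across these steps the YT values lay below the control values without overlap. With 2 libraries per group, lack of overlap alone says little, as the HK2 values did not overlap either and HK2 was not called. PKM (chromosome 15, 72199029 to 72231822), the pyruvate kinase gene, had the smallest called change, -0.34 ± 0.12 (adjusted p = 0.0299). Its YT values were 855 and 1149 CPM against 1157 and 1353 CPM in control libraries, and the call was lost without YT replicate 3 (-0.12, adjusted p = 0.323) and without control replicate 2 (-0.22, adjusted p = 0.251). It was also lost with a constant prior (adjusted p = 0.0921) and with only these groups fitted (0.155).

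LDHA (chromosome 11, 18394388 to 18408425) had the deepest fall of the 10. It stood at 82.1 and 76.7 CPM in YT and 196 and 257 CPM in control libraries, a change of -1.49 ± 0.12 (adjusted p = 4.57e-08), or 2.81-fold lower. The other lactate dehydrogenase subunit, LDHB, which favours the conversion of lactate to pyruvate, stood at 268 and 304 CPM in YT and 329 and 355 CPM in control libraries (-0.26 ± 0.082, adjusted p = 0.0189). LDHA was below LDHB in all 12 libraries.

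The same siRNAs were compared in cells depleted of cGAS or STING, to ask whether their effect differed there. In cGAS_YT against cGAS cells 5 of 10 genes fell (background 12.7% lower and 15% higher), with a median of -0.32 beside 0.033 for all genes. In STING_YT against STING cells 9 of 10 fell (background 19.8% lower and 19.1% higher), with a median of -0.65 beside 0.027. None of the 10 was called higher in either comparison by limma, edgeR or DESeq2, and 0 were higher at an unadjusted p under 0.05. LDHA, ENO1, PGK1, ALDOA and PFKP were lower in all 3 comparisons. SLC2A1, GAPDH and PKM were called lower in YT and STING_YT but not in cGAS_YT cells, TPI1 in STING_YT cells alone of the 3, and HK2 in none. The keratin markers summed to 24.5 and 24.9 CPM in cGAS_YT and 32.8 and 36.0 CPM in cGAS libraries, and to 32.9 and 37.2 CPM in STING_YT and 50.1 and 50.4 CPM in STING libraries, lower with the YAP and TAZ siRNAs in each pair. The fibroblast markers summed to 33804 and 36511 CPM in STING_YT and 29881 and 30111 CPM in STING libraries, higher with the YAP and TAZ siRNAs, which is opposite to YT against control, and overlapped between cGAS_YT (22475 and 25462 CPM) and cGAS libraries (22545 and 23519.6 CPM). The mitochondrially encoded share of reads was 5.40% and 5.29% in STING_YT and 3.82% and 4.89% in STING libraries, and its part and that of the markers were not tested. Only for SLC2A1 and TPI1 did the difference itself pass a test, as given below.

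**Figure D2:**
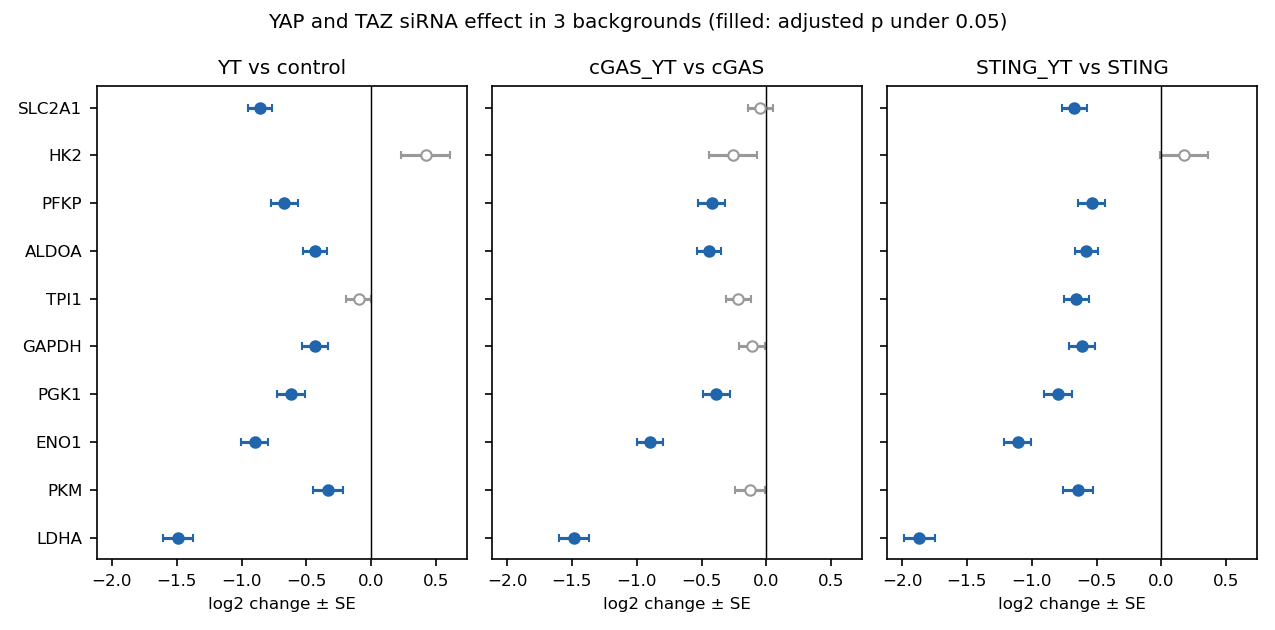
Log2 change ± SE of the 10 genes after YAP and TAZ siRNAs in control, cGAS-depleted and STING-depleted cells, limma on log2(CPM + 1); filled points passed an adjusted p of 0.05. LDHA lies at -1.49, -1.48 and -1.87 from left to right and SLC2A1 at -0.86, -0.045 and -0.67, while the HK2 points are open in all 3 panels.

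LDHA was at 84.9 and 67.7 CPM in cGAS_YT and 207 and 221 CPM in cGAS libraries (-1.48 ± 0.12, adjusted p = 2.05e-07). It was at 45.7 and 44.0 CPM in STING_YT and 167 and 166 CPM in STING libraries (-1.87 ± 0.12, adjusted p = 4.86e-09), the lowest LDHA values of the series. Relative to the same background without YAP and TAZ siRNAs, 35.6% and 27.0% of LDHA were left, beside 35.0% in YT cells. ENO1 was at 500.3 and 437 CPM in cGAS_YT and 865 and 879.7 CPM in cGAS libraries (-0.90 ± 0.10, adjusted p = 8.67e-06). In STING_YT it was at 524 and 484 CPM, against 1105 and 1070.5 CPM in STING libraries (-1.11 ± 0.10, adjusted p = 3.59e-07). LDHA and ENO1 thus changed by nearly equal amounts in YT and cGAS_YT cells. Their interactions were 0.0050 ± 0.17 and 0.00061 ± 0.15 for the cGAS siRNAs (SE, adjusted p = 0.989 and 0.998). For the STING siRNAs they were -0.38 ± 0.17 and -0.21 ± 0.15 (adjusted p = 0.200 and 0.436), and neither was called. Leaving out 1 library in turn, the LDHA value ran from -0.57 to -0.19.

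Of the other genes that fell in all 3 comparisons, PGK1 changed by -0.39 ± 0.11 in cGAS_YT and -0.80 ± 0.11 in STING_YT cells, ALDOA by -0.44 ± 0.092 and -0.58 ± 0.092, and PFKP by -0.42 ± 0.10 and -0.54 ± 0.10. In cGAS_YT cells the PGK1 call was lost without cGAS replicate 7 (-0.36), cGAS replicate 8 (-0.41) or cGAS_YT replicate 10 (-0.24), and the PFKP call without cGAS_YT replicate 10 (-0.32). Without that last library 3 of the 10 genes were called, and a constant prior ended the PGK1 call (adjusted p = 0.0602). Of the genes without a call, TPI1 (-0.22 ± 0.097) passed when only these groups were fitted (adjusted p = 0.0263), and GAPDH (-0.11 ± 0.100) and PKM (-0.13 ± 0.12) did not. In STING_YT cells the 9 calls held under each alternative run. There GAPDH was at 1151 and 1154 CPM in STING_YT and 1869.8 and 1657 CPM in STING libraries (-0.61 ± 0.100), and PKM at 944 and 892 CPM in STING_YT and 1478 and 1389 CPM in STING libraries (-0.64 ± 0.12). HK2 stood at 13.8 and 11.7 CPM in cGAS_YT and 13.8 and 17.1 CPM in cGAS libraries (-0.26 ± 0.19, adjusted p = 0.341). In STING_YT libraries HK2 was at 8.44 and 9.65 CPM and in STING libraries at 8.93 and 6.97 CPM (0.17 ± 0.19, adjusted p = 0.498).

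The interaction tests asked whether the YAP and TAZ effect differed with cGAS or STING depleted. For cGAS 1 of 10 genes passed, SLC2A1 (background 7.5% higher and 5.93% lower). SLC2A1 was at 105 and 95.3 CPM in cGAS_YT and 108 and 98.8 CPM in cGAS libraries, and these overlapped (-0.045 ± 0.094, adjusted p = 0.769). Its interaction was 0.81 ± 0.13 (adjusted p = 0.000546). A positive value means that the level after YAP and TAZ siRNAs lay higher relative to its own background in cGAS-depleted cells. That background was itself low, as SLC2A1 stood at 66.6% of the control mean in cGAS, 64.5% in cGAS_YT and 55.0% in YT cells. Between cGAS_YT and YT cells SLC2A1 had no called change (0.23 ± 0.094, adjusted p = 0.0615). The call held under each of the 17 alternatives run. YAP1 itself had a positive interaction of 0.86 ± 0.19 (adjusted p = 0.00516), standing at 24.6 and 21.7 CPM in cGAS_YT and 16.3 and 13.02 CPM in YT libraries, and its part in the result was not tested. For STING 1 of 10 genes passed, TPI1 (background 4.53% lower and 3.35% higher). A count of 1 of 10 in each interaction lies near the background and is not read as a result about the 10 as a set. TPI1 was at 140.02 and 152 CPM in STING_YT and 235 and 227 CPM in STING libraries (-0.66 ± 0.097, adjusted p = 5.25e-05), and its interaction was -0.56 ± 0.14 (adjusted p = 0.0187). That call was lost without STING replicate 13 (-0.53), STING replicate 14 (-0.58), STING_YT replicate 15 (-0.50) or control replicate 1 (-0.49), and with a constant prior (adjusted p = 0.102). PKM passed this interaction without YT replicate 3 (-0.52, adjusted p = 0.00534). The cGAS interactions of PKM and GAPDH were 0.42 and 0.41 without YT replicate 4, and -0.0049 and 0.22 without YT replicate 3. That of HK2 was -0.91 without control replicate 1 and -0.44 without control replicate 2.

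The cGAS siRNAs alone changed 3 of the 10 genes: SLC2A1 and ENO1 fell and PFKP rose (background 14.3% lower and 11.1% higher). Such counts lie near the background and are not read as a result about the 10 as a set. The fibroblast markers summed to 22545 and 23519.6 CPM in cGAS and 32703 and 33209 CPM in control libraries, and the keratins to 32.8 and 36.0 CPM in cGAS and 48.5 and 56.0 CPM in control libraries. Both sums were lower in cGAS, as was WWTR1 (-0.53 ± 0.12, adjusted p = 0.00426), and their part in the result was not tested. SLC2A1 was at 108 and 98.8 CPM in cGAS and 147 and 164 CPM in control libraries, without overlap (-0.58 ± 0.094, adjusted p = 0.000238). This call held without each library in turn. PFKP was at 226 and 222 CPM in cGAS and 161 and 191 CPM in control libraries (0.35 ± 0.10, adjusted p = 0.0188). It was highest in the 2 cGAS libraries of all 12. The PFKP call was lost without cGAS replicate 7 (0.34), cGAS replicate 8 (0.36) or control replicate 1 (0.23). ENO1, at 865 and 879.7 CPM in cGAS libraries, changed by -0.31 ± 0.10 (adjusted p = 0.0349), and the call was lost without cGAS replicate 7 (-0.30), cGAS replicate 8 (-0.33) or control replicate 2 (-0.18). LDHA had no called change (-0.070 ± 0.12, adjusted p = 0.716). A constant prior left SLC2A1 as the 1 call, and the ENO1 call was also lost under median of ratios scaling (adjusted p = 0.0514). With only these 2 groups fitted, PKM (-0.25 ± 0.12) and GAPDH (-0.26 ± 0.100) were called lower too. Without control replicate 1, GAPDH changed by -0.35 and HK2 by 0.65, and without control replicate 2 they changed by -0.16 and 0.18.

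With YAP and TAZ depleted in both groups, cGAS_YT against YT called 4 of the 10 genes, PFKP and PGK1 higher and ENO1 and TPI1 lower (background 20.5% higher and 20.2% lower). These counts lie near the background and are not read as a result about the 10 as a set. PFKP was at 179 and 156 CPM in cGAS_YT and 100.1 and 120.3 CPM in YT libraries (0.60 ± 0.10, adjusted p = 0.000200), and this call held without each library in turn. PFKP was thus higher with cGAS siRNAs both with and without the YAP and TAZ siRNAs, and its interaction was 0.25 ± 0.15 (adjusted p = 0.292). The keratins summed to 24.5 and 24.9 CPM in cGAS_YT and 28.1 and 34.5 CPM in YT libraries, and the fibroblast markers to 22475 and 25462 CPM in cGAS_YT and 26587 and 28218 CPM in YT libraries, both lower in cGAS_YT, and their part was not tested. PGK1 changed by 0.35 ± 0.11, ENO1 by -0.31 ± 0.10 and TPI1 by -0.28 ± 0.097. The PGK1 call was lost without cGAS_YT replicate 9 (0.21), the ENO1 call without YT replicate 4 (-0.20) or cGAS_YT replicate 10 (-0.22), and the TPI1 call without YT replicate 4 (-0.12), cGAS_YT replicate 9 (-0.32) or cGAS_YT replicate 10 (-0.25). With a constant prior, or with only these 2 groups fitted, PFKP was the 1 call left. Without YT replicate 3, SLC2A1 was called higher (0.34) and PKM lower (-0.26).

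**Figure D3:**
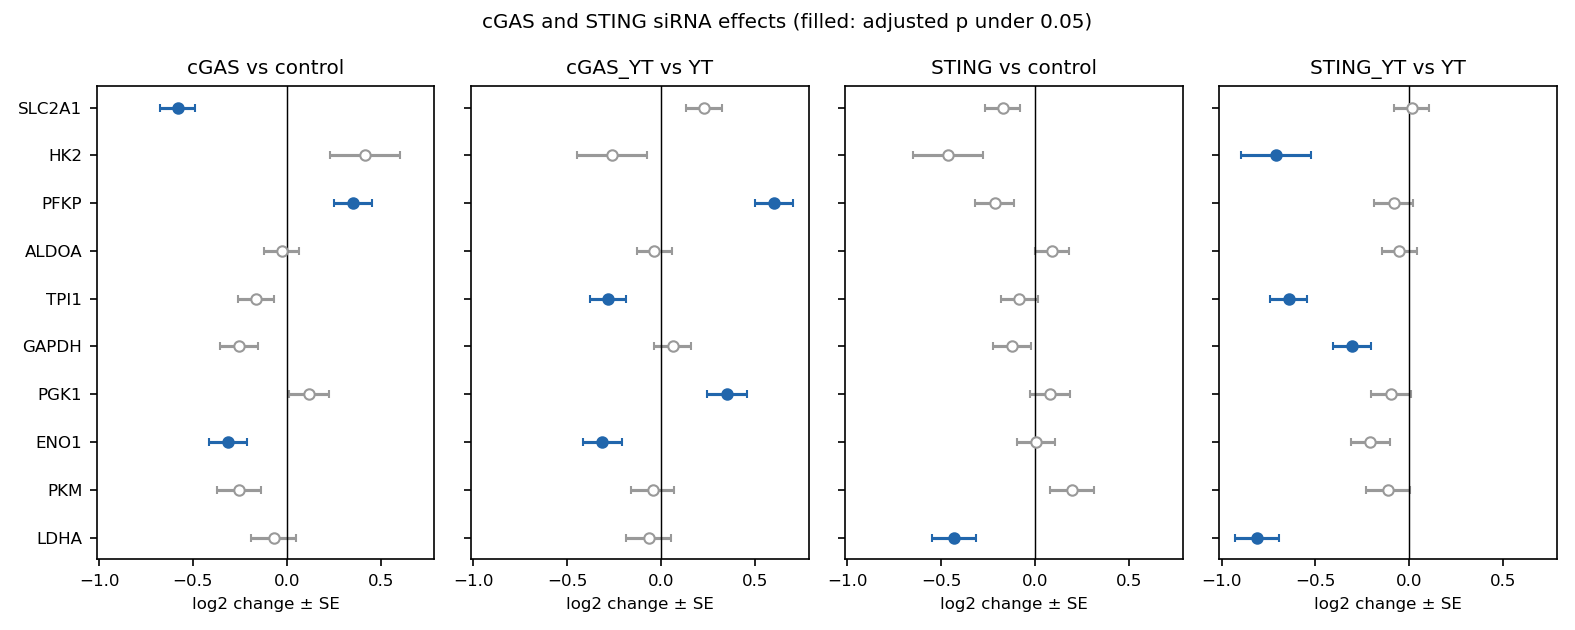
Log2 change ± SE of the 10 genes after cGAS or STING siRNAs, each without and with YAP and TAZ siRNAs, limma on log2(CPM + 1); filled points passed an adjusted p of 0.05. PFKP lies right of 0 in both cGAS panels (0.35 and 0.60), and LDHA lies left of 0 in both STING panels (-0.43 and -0.81).

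The STING siRNAs alone changed LDHA and none of the other 9 genes, a count near the background (8.86% lower and 6.14% higher). The fibroblast markers summed to 29881 and 30111 CPM in STING and 32703 and 33209 CPM in control libraries, and their part was not tested. WWTR1 was lower in STING too (-0.46 ± 0.12, adjusted p = 0.0183), and its part was not tested. LDHA was at 167 and 166 CPM in STING and 196 and 257 CPM in control libraries, without overlap (-0.43 ± 0.12, adjusted p = 0.0212). The call was lost without STING replicate 13 (-0.44), STING replicate 14 (-0.43) or control replicate 2 (-0.24), and with a constant prior (adjusted p = 0.0934). In STING_YT against YT cells 4 of the 10 fell: LDHA, TPI1, HK2 and GAPDH (background 18% lower and 16% higher). The fibroblast markers summed to 33804 and 36511 CPM in STING_YT and 26587 and 28218 CPM in YT libraries, and the mitochondrially encoded share was 5.40% and 5.29% in STING_YT and 4.14% and 3.52% in YT libraries, both higher in STING_YT, and their part was not tested. WWTR1 was lower in STING_YT than in YT (-0.65 ± 0.12, adjusted p = 0.000627), and its part was not tested. LDHA was at 45.7 and 44.0 CPM in STING_YT and 82.1 and 76.7 CPM in YT libraries (-0.81 ± 0.12, adjusted p = 6.03e-05), and TPI1 changed by -0.64 ± 0.097 (adjusted p = 8.79e-05). HK2 was at 8.44 and 9.65 CPM in STING_YT and 16.4 and 14.5 CPM in YT libraries (-0.71 ± 0.19, adjusted p = 0.00757). GAPDH, often used to normalise other transcripts, changed by -0.30 ± 0.100 (adjusted p = 0.0266). The GAPDH call was lost with a constant prior, with only these groups fitted, and without YT replicate 4 (-0.21), STING_YT replicate 15 (-0.30) or STING_YT replicate 16 (-0.31), and the HK2 call without STING_YT replicate 15 (-0.62), which left 2 of the 10 called. Without YT replicate 3, ENO1 (-0.32) and PKM (-0.32) were called lower as well. The comparisons with control share the control libraries, and the last 2 pairs share the YT libraries, so they are not independent of each other.

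Across the 12 libraries, which share the 6 treatments and so are not independent, log2(CPM + 1) of ENO1 and ALDOA had the highest correlation of the 45 pairs (Pearson r = 0.957), and the median pair had 0.762. HK2 stood apart: its correlations with the other 9 genes lay between -0.469 (PKM) and 0.238 (PFKP). The lowest pair without HK2 was PKM with PFKP (0.389). These are given as descriptions, with no test.

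The other genes of glucose metabolism are described by lists. Among 11 further glycolysis enzymes measured, of 20 listed, 3 fell and 2 rose in YT against control, with a median of -0.030. In cGAS_YT against cGAS 3 fell and 2 rose (0.024), and in STING_YT against STING 2 fell and 1 rose (-0.12). Over all genes 20.6% higher and 20.9% lower were called in YT against control, 15% higher and 12.7% lower in cGAS_YT against cGAS, and 19.1% higher and 19.8% lower in STING_YT against STING, with medians of 0.0031, 0.033 and 0.027, and the shares of this list in YT cells, 27.3% lower and 18.2% higher, lay near them. GPI, the isomerase that follows hexokinase, fell in all 3 (-0.37 ± 0.082, -0.42 ± 0.082 and -0.46 ± 0.082), as did LDHB (-0.26 ± 0.082, -0.33 ± 0.082 and -0.39 ± 0.082). ENO2, the second enolase and best known from neurons, rose in all 3 (0.84 ± 0.12, 0.34 ± 0.12 and 0.53 ± 0.12), the direction opposite to ENO1. It stood at 39.4 and 45.6 CPM in YT and 22.5 and 23.9 CPM in control libraries, far under ENO1. PGAM1, the mutase between PGK1 and enolase, was called lower in YT cells (-1.82 ± 0.48, adjusted p = 0.00585), but its YT libraries stood at 8.82 and 0.720 CPM, against a mean of 13.6 ± 1.98 CPM in control libraries (SD, n = 2). HK1 (-0.13 ± 0.11), PFKL (0.13 ± 0.12), PFKM (-0.016 ± 0.14) and ALDOC (0.098 ± 0.19) were not called in that comparison. HK1 was lower with cGAS siRNAs, both without (-0.58 ± 0.11) and with (-0.67 ± 0.11) the YAP and TAZ siRNAs. BPGM, which makes the haemoglobin ligand 2,3-bisphosphoglycerate in red cells, was lower with STING siRNAs (-0.93 ± 0.11 without and -1.77 ± 0.11 with the YAP and TAZ siRNAs). BPGM rose in YT cells (0.71 ± 0.11) and with cGAS siRNAs alone (0.36 ± 0.11). It was not called in cGAS_YT (0.16 ± 0.11) or STING_YT cells (-0.12 ± 0.11). Its interactions were -0.55 ± 0.16 for cGAS (adjusted p = 0.0261) and -0.84 ± 0.16 for STING (adjusted p = 0.00267).

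**Figure D4:**
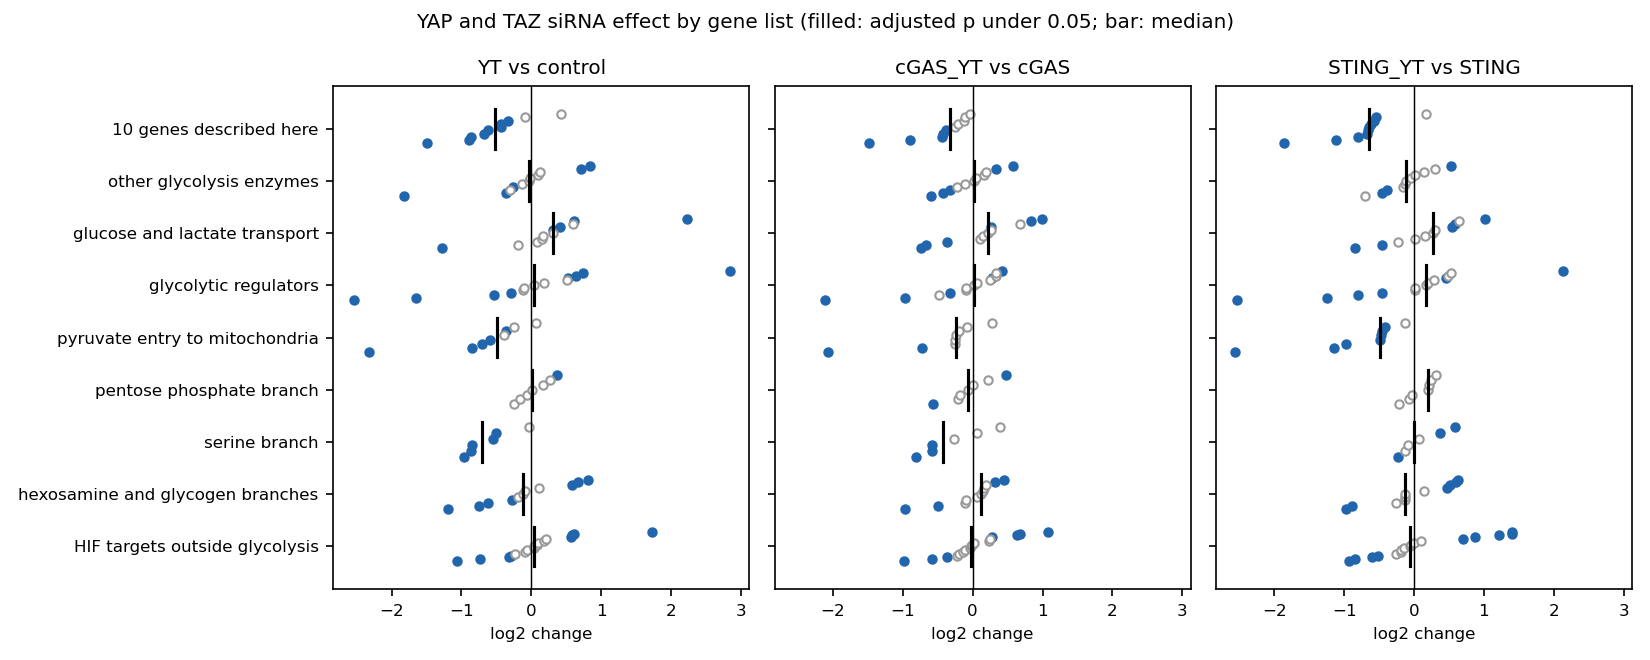
Log2 change of each measured gene after YAP and TAZ siRNAs in 3 backgrounds, by gene list; filled points passed an adjusted p of 0.05 and black bars are list medians. The 10 genes described here have medians of -0.53, -0.32 and -0.65, while the medians of the HIF targets outside glycolysis are 0.043, -0.030 and -0.063.

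Of 11 other transport genes measured, of 14 listed, 4 rose and 1 fell in YT cells (all genes 20.6% higher and 20.9% lower), with a median of 0.31. SLC2A3, which encodes the high-affinity transporter GLUT3, moved opposite to SLC2A1 there: it was at 278 and 312 CPM in YT and 194 and 189 CPM in control libraries (0.62 ± 0.080, adjusted p = 1.29e-05). In the other backgrounds it fell, with 129 and 129.9 CPM in cGAS_YT and 221 and 214 CPM in cGAS libraries (-0.74 ± 0.080), and 43.9 and 42.5 CPM in STING_YT and 79.5 and 77.3 CPM in STING libraries (-0.84 ± 0.080). The interactions were -1.36 ± 0.11 for cGAS (adjusted p = 7.35e-07) and -1.46 ± 0.11 for STING (adjusted p = 1.1e-06). SLC2A3 has a near-identical paralog, SLC2A14, and its values are uncertain where counting split reads between them. The lactate exporter gene SLC16A3 (MCT4) rose in YT cells (0.31 ± 0.11) and fell in cGAS_YT cells (-0.36 ± 0.11), and SLC16A1 (MCT1) rose in YT and STING_YT cells (0.41 ± 0.084 and 0.55 ± 0.084). TXNIP, which promotes the removal of GLUT1 from the cell surface and is induced by glucose, fell in all 3 comparisons (-1.29 ± 0.087, -0.66 ± 0.087 and -0.45 ± 0.087). The list counted 3 higher and 3 lower in cGAS_YT cells (median 0.22; all genes 15% higher and 12.7% lower). In STING_YT cells it counted 3 higher and 2 lower (median 0.27; all genes 19.1% higher and 19.8% lower).

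**Figure D5:**
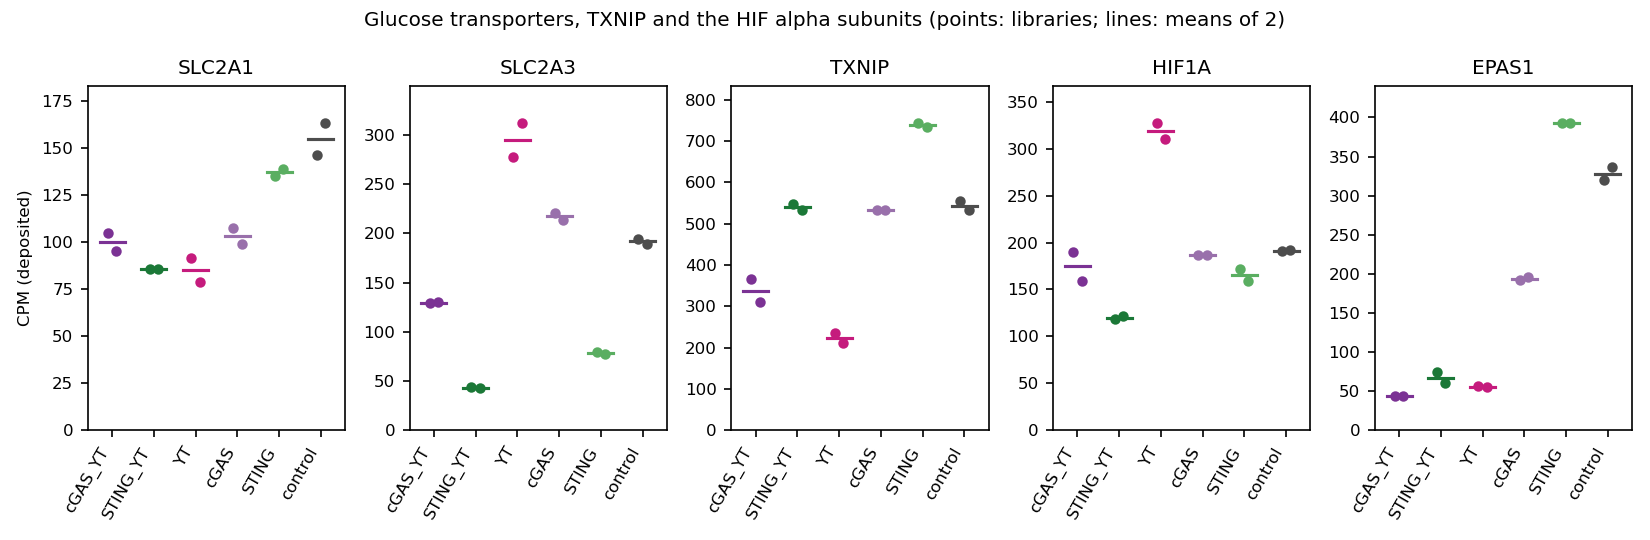
Deposited CPM of SLC2A1, SLC2A3, TXNIP, HIF1A and EPAS1 in the 12 libraries; points are libraries, lines the means of 2, and each axis starts at 0. HIF1A and SLC2A3 are highest in YT libraries, at 319 and 295 CPM on average, while EPAS1 is lower in the 6 libraries with YAP and TAZ siRNAs than in the other 6.

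Among 13 regulators measured 4 rose and 4 fell in YT cells, 2 rose and 3 fell in cGAS_YT, and 2 rose and 4 fell in STING_YT cells (medians 0.036, 0.015 and 0.18). Over all genes the calls were 20.6% higher and 20.9% lower in YT, 15% higher and 12.7% lower in cGAS_YT and 19.1% higher and 19.8% lower in STING_YT cells, and counts of 2 to 4 of 13 are not read as a result about this list. EPAS1, which encodes HIF-2 alpha, was at 56.5 and 55.0 CPM in YT and 319 and 337 CPM in control libraries, and fell in all 3 comparisons (-2.54 ± 0.093, -2.11 ± 0.093 and -2.54 ± 0.093). HIF1A, which encodes HIF-1 alpha, a protein controlled mainly by its stability, was at 327 and 311 CPM in YT and 191 and 192 CPM in control libraries (0.73 ± 0.088, adjusted p = 5.37e-06). It fell in STING_YT cells (-0.46 ± 0.088) and was not called in cGAS_YT cells (-0.099 ± 0.088), and the interactions were -1.19 ± 0.12 for STING (adjusted p = 1.62e-05) and -0.83 ± 0.12 for cGAS (adjusted p = 0.000237). MYC, at no more than 13.3 CPM in any library, fell in all 3 (-1.65 ± 0.31, -0.97 ± 0.31 and -1.24 ± 0.31). PFKFB3, whose product makes the activator of phosphofructokinase, rose in all 3 (0.52 ± 0.098, 0.27 ± 0.098 and 0.45 ± 0.098). PDK4, a kinase that switches off pyruvate dehydrogenase, rose in YT cells, to 7.08 and 5.76 CPM, and in STING_YT cells, to 3.33 and 3.40 CPM, and was at 0.332 CPM or less in the other 8 libraries.

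Of the 17 other HIF targets measured 4 rose and 4 fell in YT cells (all genes 20.6% higher and 20.9% lower), 4 rose and 3 fell in cGAS_YT cells (all genes 15% higher and 12.7% lower), and 5 rose and 4 fell in STING_YT cells (all genes 19.1% higher and 19.8% lower). In YT cells 23.5% of the list was called in each direction, near the share of all genes. CA12, a carbonic anhydrase gene, rose in all 3 (1.73 ± 0.12, 1.08 ± 0.12 and 1.41 ± 0.12), while P4HA2, a collagen prolyl hydroxylase gene, fell in all 3 (-1.06 ± 0.082, -0.58 ± 0.082 and -0.93 ± 0.082). VEGFA, the vascular growth factor gene, rose in YT and STING_YT cells (0.61 ± 0.13 and 0.87 ± 0.13) and had no called change in cGAS_YT cells (-0.032 ± 0.13).

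Downstream of pyruvate, 8 genes for its entry into mitochondria were measured. Of these 5 fell in YT cells (all genes 20.9% lower), 2 in cGAS_YT cells (all genes 12.7% lower) and 7 in STING_YT cells (all genes 19.8% lower), with medians of -0.49, -0.24 and -0.49, beside 0.0031, 0.033 and 0.027 for all genes. MPC2, a subunit of the mitochondrial pyruvate carrier, was at 12.3 and 10.1 CPM in YT and 52.7 and 68.7 CPM in control libraries (-2.33 ± 0.14, adjusted p = 1.26e-09), and also fell in the other backgrounds (-2.08 ± 0.14 and -2.56 ± 0.14). Its partner MPC1 was not called in these 3 comparisons (-0.39 ± 0.15, 0.27 ± 0.15 and -0.13 ± 0.15). The dehydrogenase subunit genes PDHB (-0.84 ± 0.098) and DLD (-0.60 ± 0.100) fell in YT cells.

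Of the branches that leave glycolysis, the serine branch had 5 of 6 genes lower in YT cells (median -0.70; all genes 20.9% lower) and 3 of 6 lower in cGAS_YT cells (-0.43; all genes 12.7% lower). In STING_YT cells 2 of the 6 rose and 1 fell (-0.0053; all genes 19.1% higher and 19.8% lower). PSAT1, the aminotransferase of serine synthesis, was at 165 and 138 CPM in YT and 268 and 279 CPM in control libraries (-0.85 ± 0.12), and at 407 and 373 CPM in STING_YT and 310.5 and 291 CPM in STING libraries (0.37 ± 0.12). Its interaction with the STING siRNAs was 1.23 ± 0.17 (adjusted p = 0.000204). Of 7 pentose phosphate genes 1 rose in YT cells, where 20.6% of all genes were called higher, and 1 rose and 1 fell in cGAS_YT cells, where 15% higher and 12.7% lower were called, counts near or below those shares (medians over the 3 comparisons 0.0074, -0.072 and 0.20). Of 11 genes of the hexosamine and glycogen branches 3 rose and 4 fell in YT cells (all genes 20.6% higher and 20.9% lower), 2 rose and 2 fell in cGAS_YT cells (all genes 15% higher and 12.7% lower), and 4 rose and 2 fell in STING_YT cells (all genes 19.1% higher and 19.8% lower). UAP1, which makes the activated sugar UDP-GlcNAc, fell in all 3 (-1.20 ± 0.12, -0.97 ± 0.12 and -0.89 ± 0.12).

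Likeness was measured by Pearson r of log2(CPM + 1) over the 12 libraries, among genes averaging 20 CPM or more. The gene most like the mean profile of the 10 was SERBP1, an mRNA-binding protein gene (r = 0.987), followed by RRP7A (0.978), EZR (0.975), PPP2R1A (0.974) and GLTP (0.974). LDHA was most like PPP1CB, a catalytic subunit of protein phosphatase 1 (0.988), TIMM17A (0.987), SERBP1 (0.985), CCDC6 (0.983) and RANBP1 (0.982). SLC2A1 was most like OPN3 (0.962), RBBP7 (0.955), CSRP1 (0.955), AZIN1 (0.953) and GTF3C2 (0.952). HK2 was most like PRRC1 (0.938), the collagen gene COL7A1 (0.925), SMCHD1 (0.907), ARFGAP1 (0.905) and CLDN1 (0.902). The points share treatments and library scaling, so these correlations are descriptions.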

How the data were processed

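Libraries of WI-38 RNA were made with a 3' mRNA kit, per the labels' protocols. STAR 2.5.3a, edgeR, featureCounts and build hg38 are named in the submitters' processing notes. The annotation and the strand setting of the counting are not given in these sources. The deposited signal is CPM scaled per library by the authors (implied factors 0.975 to 1.03). Values were whole multiples of 1 read's worth, within 0.01 reads, in 100% of cases, so reads were recovered; 3 reads equal 0.142 to 0.170 CPM, which covers counting error only.

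Genes absent from the table were not analysed here. Log2(CPM + 1) of the 13894 genes reaching 1 CPM in 2 or more libraries was fitted with limma 3.58.1 (R 4.3.3, trended prior, 6 residual and 10.1 prior degrees of freedom), all 12 libraries together, with Benjamini-Hochberg adjustment within each of 9 contrasts. On this scale changes of weak genes are understated. The alternatives tried were leaving out each library, a pseudocount of 0.25 or 4, the filter set to 5 CPM or dropped, median of ratios scaling, a prior without trend (the constant prior), fitting the compared groups alone, and edgeR 4.0.16 (quasi-likelihood) and DESeq2 1.42.0 on the recovered reads. The pipeline was tested on simulated counts. Where 1 library was left in a group, it was taken to vary as the other groups do.

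The 10 genes, the 8 pathway lists and the contrasts were chosen with earlier results of these data known. Named besides the 10 were their isozymes, the regulators, the targeted genes, up to 4 genes per list and contrast by smallest p, and the 5 genes most correlated with the mean profile, LDHA, HK2 and SLC2A1; the text gives a selection. Gene positions are from GENCODE release 29 (GRCh38). GENCODE lists 62 pseudogenes named after GAPDH and up to 6 after the other genes, so reads are uncertain where counting could split them. ATP7A overlaps PGK1, SPSB2 overlaps TPI1 and SLC2A1-AS1 overlaps SLC2A1; such reads cannot be told apart where strand was not used.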

Additional observations from a re-analysis of the deposited data

Results flagged for a closer look

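The effect of the YAP and TAZ siRNAs on SLC2A1 differed between cells with and without cGAS siRNAs, with an interaction of 0.81 on the log2 scale (adjusted p = 0.000546 by limma). SLC2A1 was low in both cGAS groups, at 66.6% of the control mean in cGAS and 64.5% in cGAS_YT cells, beside 55.0% in YT cells. The effect on TPI1 differed between cells with and without STING siRNAs, with an interaction of -0.56 (adjusted p = 0.0187), a call lost under 5 of 17 alternatives. For the other 8 genes neither interaction passed.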

How the results depend on the processing

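Of 1250 recomputed log2 changes of the 10 genes, 1153 kept direction and side of the threshold, 46 lost a call, 15 gained one and 36 changed sign, none of them a called value. No paired analysis was possible because each replicate number occurs once. With 2 libraries per group, precision rests on the spread pooled over groups, and HK2, at 6.97 to 17.1 CPM, is the least precise of the 10. Leaving out 1 library in turn, the count of all genes called ranged over 2050 to 2741 in cGAS against control (3528 with all), 879 to 1317 in STING against control (2084 with all), 2258 to 3092 in cGAS_YT against cGAS (3848 with all), 3015 to 5315 in STING_YT against YT (4731 with all), 1111 to 3270 in the cGAS interaction (1866 with all), 550 to 2555 in the STING interaction (1095 with all). The count among the 10 genes ranged over 1 to 4 in cGAS against control (3 with all), 0 to 1 in STING against control (1 with all), 3 to 5 in cGAS_YT against cGAS (5 with all), 2 to 6 in cGAS_YT against YT (4 with all), 2 to 6 in STING_YT against YT (4 with all), 1 to 3 in the cGAS interaction (1 with all), 0 to 2 in the STING interaction (1 with all). In YT against control, leave-one-out log2 changes crossed 0 for TPI1 (-0.25 to 0.059). In cGAS against control, leave-one-out log2 changes crossed 0 for LDHA (-0.26 to 0.12), PGK1 (-0.017 to 0.26), ALDOA (-0.16 to 0.10). In STING against control, leave-one-out log2 changes crossed 0 for ENO1 (-0.13 to 0.14), PGK1 (-0.056 to 0.22), ALDOA (-0.038 to 0.22). In cGAS_YT against cGAS, leave-one-out log2 changes crossed 0 for SLC2A1 (-0.11 to 0.022). In cGAS_YT against YT, leave-one-out log2 changes crossed 0 for LDHA (-0.23 to 0.096), PKM (-0.26 to 0.17), GAPDH (-0.032 to 0.16), ALDOA (-0.098 to 0.029). In STING_YT against YT, leave-one-out log2 changes crossed 0 for PKM (-0.32 to 0.10), ALDOA (-0.12 to 0.011), SLC2A1 (-0.094 to 0.12), PFKP (-0.21 to 0.048). In the cGAS interaction, leave-one-out log2 changes crossed 0 for LDHA (-0.19 to 0.20), ENO1 (-0.13 to 0.13), PKM (-0.0049 to 0.42), ALDOA (-0.14 to 0.12), TPI1 (-0.27 to 0.038). Fitting only the groups compared called 3784 genes in YT against control in place of 5773, and among the 10 genes 5 in cGAS against control and 1 in cGAS_YT against YT. A constant prior called 703 genes in the STING interaction in place of 1095, and among the 10 genes 1 in cGAS against control, 0 in STING against control, 1 in cGAS_YT against YT and 0 in the STING interaction. Log2 changes near 0 also crossed it for ENO1 in STING against control on recovered reads with edgeR (-0.0011), and in the cGAS interaction for LDHA and ENO1 under median of ratios scaling (-0.022 and -0.027) and with DESeq2 (-0.0018 and -0.022). Apart from leaving out a library, where fewer samples enter, the cause of these changes was not tested.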
